A study of Bos taurus with 6 samples.

Results

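The miRNA miR-423 was followed here through both of its arms, bta-miR-423-5p (MIMAT0012537) and bta-miR-423-3p (MIMAT0003831), in small RNA libraries of bovine cumulus cells. The members were taken by name and make up 2 of the 1055 entries of the count table, with a single entry for each arm. The members were chosen by their counts in the 6 libraries, both being low in Sample E, so their values in that library and the group differences that include it are given as a description. The cumulus pieces were taken from in vitro matured cumulus-oocyte complexes (COCs), and each COC was then fertilized and cultured individually. Samples A, B and C were pools of cumulus from oocytes that stayed uncleaved when exposed to sperm (not cleaved), and Samples D, E and F were pools from oocytes that reached the blastocyst stage (blastocyst). All COCs came from slaughterhouse ovaries, were matured in medium with fetal bovine serum and follicle stimulating hormone, and were exposed to sperm of a bull of proven fertility. Each sample is a pool of several COCs, so that single complexes cannot be resolved, and fewer cells and less RNA per cell cannot be told apart. The sources used here do not give the age of the animals.

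A miRNA gene is transcribed into a long RNA that folds into a hairpin. Drosha and then Dicer cut the hairpin, which leaves a short duplex of the 5p and the 3p arm. One strand of a duplex is loaded into an Argonaute protein, where its seed guides it to target mRNAs, while the other strand is usually degraded. For most hairpins one arm therefore prevails, and the arm ratio describes which strand is kept. miR-423 is expressed in many tissues, and both of its arms are often seen in small RNA libraries. Both arms have been used as reference small RNAs in qRT-PCR. In human studies miR-423-5p is known as a candidate blood marker of heart failure, and miR-423-3p has been described as a repressor of the cell cycle inhibitor p21. In the RefSeq gene table (ARS-UCD2.0) the bovine gene MIR423 lies within NSRP1, which codes for a splicing regulator of nuclear speckles. EFCAB5 and SLC6A4, the serotonin transporter gene, are the nearest protein-coding genes on either side, and 0 other miRNA genes were listed within 10 kb.

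The libraries held between 2776256 and 8139237 counts, a 2.93-fold range. CPM give the counts of an entry relative to the total of its library, and TMM-scaled CPM also carry a factor for the composition of each library. The gonadal miR-202 ran from 5968 to 8454 CPM over the libraries. The 4 listed miRNAs of blood cells and the 3 of early embryonic and germ cells reached at most 20 and 33 counts in a library. Samples B and E stood apart in the entries miR-2887, miR-2904, miR-2411-3p and miR-2332, of which the first pair are described as overlapping other RNAs. These 7 entries summed to 1985 CPM in Sample B and 756 CPM in Sample E, against 47.6 to 103 CPM in the other 4 libraries. Results that rest on Sample E are therefore given with and without it below.

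miR-423-5p was among the abundant miRNAs of cumulus cells in all libraries but Sample E. The not-cleaved Samples A, B and C held 35738, 9844 and 15390 counts of it. The blastocyst Samples D, E and F held 22775, 532 and 14708 counts. After TMM scaling the levels were 4403, 3001 and 3961 CPM in Samples A, B and C, and 3005, 150 and 4060.3 CPM in Samples D, E and F. The 5 other libraries thus lay within 1.47-fold of each other, while Sample E lay 19.9-fold below the lowest of them and 26.3-fold below their median. On the log2 scale the deviation of Sample E from the median of the other 5 was -4.71, and the deviations of the other libraries ran from -0.40 to 0.55. Counting error is small beside this gap. The share of miR-423-5p was 0.0150% of the counts of Sample E (Wilson 95% interval 0.0138% to 0.0163%) and 0.280% (0.276% to 0.283%) in Sample D, the lowest of the others. No molecular identifiers are described for these libraries, so that the intervals cover counting error only. By abundance miR-423-5p took rank 28 to 34 among the entries in the other libraries and rank 106 in Sample E.

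**Figure D1:**
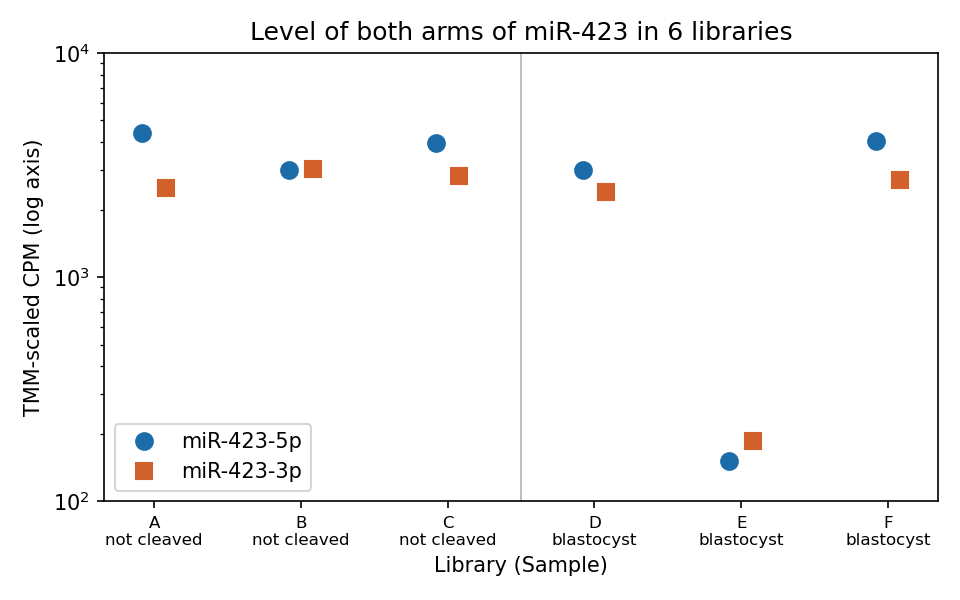
Level of miR-423-5p (circles) and miR-423-3p (squares) in TMM-scaled CPM on a log axis, 1 point per library, with not-cleaved samples on the left and blastocyst samples on the right. Both arms lie between 2405 and 4403 CPM in 5 libraries and at 150 and 185 CPM in Sample E.

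miR-423-3p, the other arm of the hairpin, was low in the same library. Its counts were 20270, 10003 and 11004 in Samples A, B and C and 18231, 653 and 9824 in Samples D, E and F. In TMM-scaled CPM these are 2497, 3050 and 2832 for the not-cleaved samples and 2405, 185 and 2712 for the blastocyst samples. The 5 libraries other than Sample E were within 1.27-fold of each other. In CPM of the library totals the range was wider and alike for both arms, 1.61-fold for miR-423-3p and 1.62-fold for miR-423-5p. Sample E was 13.0-fold below the lowest of them and 14.7-fold below their median, a deviation of -3.87 on the log2 scale, where the others deviated by -0.17 to 0.29. The arm took 0.0184% of the counts of Sample E (Wilson 95% interval 0.0170% to 0.0199%) and 0.224% (0.221% to 0.227%) in Sample D. Its rank by abundance was 33 to 37 in the other libraries and 98 in Sample E. The 7 entries that set Samples B and E apart were highest in Sample B, where the 5p and 3p arms were at 3001 and 3050 TMM-scaled CPM, and their part in the low levels of Sample E was not tested. Together both arms gave 1185 counts in Sample E, or 0.0334% of the library, and took 0.504% to 0.715% of the counts elsewhere.

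The 5p arm outnumbered the 3p arm in 4 of the 6 libraries, by 1.25-fold to 1.76-fold. The ratio of 5p to 3p counts needs no scaling between libraries, since both arms are counted in the same library. It was 1.76, 0.984 and 1.40 in Samples A, B and C and 1.25, 0.815 and 1.497 in Samples D, E and F. As a share of both arms, the 5p arm made up 63.8% (Wilson 95% interval 63.4% to 64.2%) for Sample A and 58.3% (57.7% to 58.9%) for Sample C. The blastocyst Sample D gave 55.5% (55.1% to 56.0%) and Sample F gave 59.95% (59.3% to 60.6%). In Sample B the arms were equal within counting error, at 49.6% (48.9% to 50.3%), and in Sample E the 3p arm prevailed, at a 5p share of 44.9% (42.1% to 47.7%). The intervals of Samples B and E, which had the highest sums of the 7 entries named above, lie below those of the other 4 libraries. Whether those entries have a part in the arm ratio was not tested. On the log2 scale the ratio of Sample E was 0.78 below the median of the other 5, whose own SD was 0.31. The deviation of Sample E was thus larger for the 5p arm, but most of it was common to both arms.

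**Figure D2:**
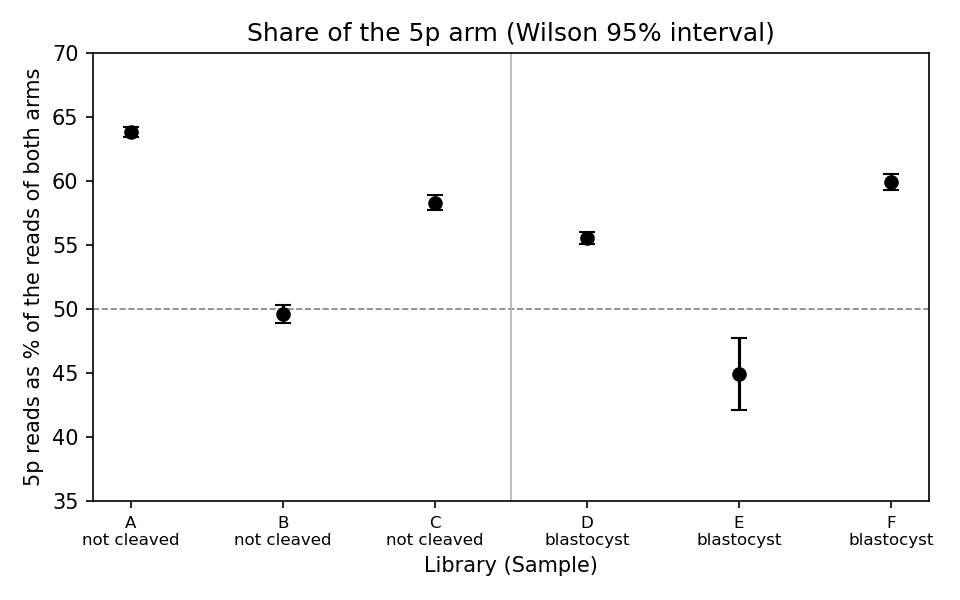
Counts of miR-423-5p as a percentage of the counts of both arms in each library, with Wilson 95% intervals for counting error and a dashed line at equal arms. Samples B and E lie at 49.6% and 44.9%, and the other 4 libraries lie between 55.5% and 63.8%.

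In the cumulus of oocytes that became blastocysts, the mean level of both arms was lower than around oocytes that did not cleave, and this difference rested on Sample E. With all libraries the TMM-scaled CPM of miR-423-5p averaged 3788 ± 716 (SD, n = 3) for not-cleaved and 2405 ± 2023 (SD, n = 3) for blastocyst samples. For miR-423-3p the same fates gave 2793 ± 278 (SD, n = 3) and 1767 ± 1379 (SD, n = 3). In both arms the SD of the blastocyst samples was close to their mean. The log2 fold change of blastocyst over not cleaved was -0.66 (SE 0.92) for the 5p arm and -0.66 (SE 0.79) for the 3p arm, against a median of -0.02 over the 358 entries tested. These fits compare group means on the linear scale. A difference of mean log2 levels, which gives a single low library more weight, was -1.61 for the 5p arm and -1.39 for the 3p arm. No test is given for these values, because they include the library for which the miRNA was chosen.

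Without Sample E the levels of both arms were close in the 2 fates. The blastocyst samples then averaged 3532 ± 747 TMM-scaled CPM of miR-423-5p (SD, n = 2), and the not-cleaved samples B, C and A, at 3001, 3961 and 4403 CPM, lay on both sides of Samples D and F or between them. Its log2 fold change was -0.093 (SE 0.22, edgeR quasi-likelihood test, adjusted p = 0.947). miR-423-3p was at 2559 ± 217 (SD, n = 2), with Sample F inside the range of the not-cleaved samples and Sample D below it. The log2 fold change was -0.12 (SE 0.16, edgeR adjusted p = 0.916). The difference was smaller than its standard error for each arm. In this fit 0 of the 2 arms passed an adjusted p of 0.05, where 0% of the 368 entries tested passed with edgeR. An unadjusted p under 0.05 was found for 17 of the 368 entries. The count by DESeq2 was 4 of the 368 entries, with 31 at an unadjusted p under 0.05, and neither arm was among them (adjusted p = 0.962 for both). With all 6 libraries 0% of 358 entries passed with edgeR, with 10 at an unadjusted p under 0.05, and DESeq2 called 0, with 7. The sources used here do not say whether pools of 1 group were made on separate days, and the p-values therefore cover the spread of these pools alone.

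**Figure D3:**
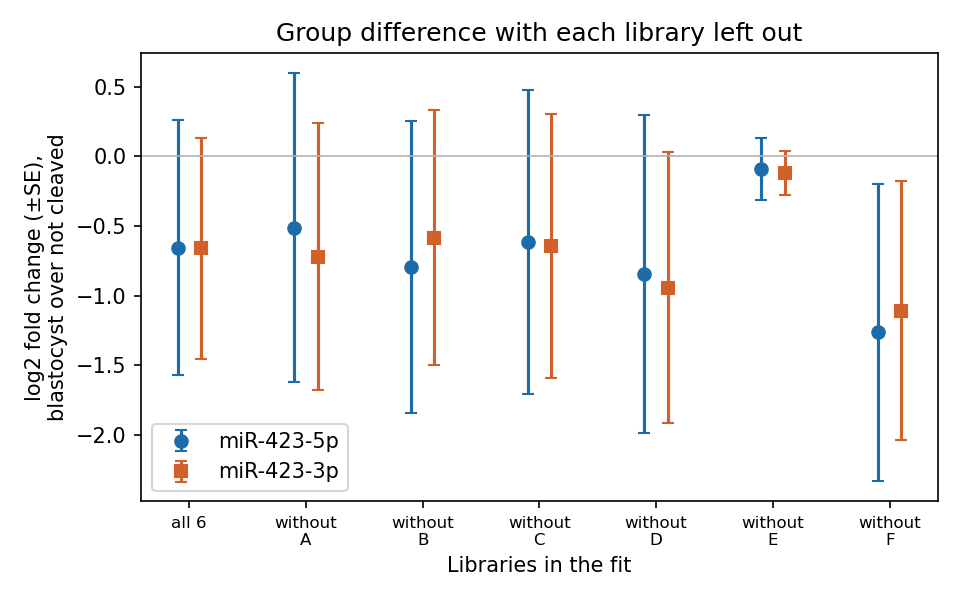
The log2 fold change of blastocyst over not-cleaved samples from edgeR, with bars of ±1 SE, for miR-423-5p (circles) and miR-423-3p (squares), with all 6 libraries and with each library left out. The point estimates lie between -1.26 and -0.51 in the fits that hold Sample E, and at -0.093 and -0.12 in the fit without it.

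The arm ratio also gave no difference between the fates beyond the spread of the samples. The log2 ratio of 5p to 3p averaged 0.43 ± 0.42 (SD, n = 3) around oocytes that did not cleave and 0.20 ± 0.45 (SD, n = 3) around those that became blastocysts. Without Sample E the blastocyst mean was 0.45 ± 0.18 (SD, n = 2), a difference of 0.025 (two-sided exact permutation test, p = 1.0). With 3 libraries against 2 this test cannot give a p below 0.1. Leaving out Sample B as well turned the difference to -0.20 (exact p = 0.667). Samples A and C then lay on both sides of Sample F, and Sample D had the lowest ratio.

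miR-423 belonged to a small set of miRNAs that were far lower in Sample E than elsewhere. Of the 257 entries averaging 50 counts or more per library, 14 entries of 13 miRNAs, or 5.45%, lay over 3 log2 units lower in Sample E than in the median of the other libraries. miR-423-5p was the eighth and miR-423-3p the thirteenth from the lowest. The limit of 3 falls in a gap, with miR-1842 at -3.53 inside it and miR-411a at -2.70 outside. By their mean CPM in the other libraries, miR-423-5p (3688 CPM) and miR-423-3p (2727 CPM) came next in the set after miR-1839 (3982 CPM). miR-1839 deviated most, at -6.39 on the log2 scale. Both arms made up 32.4% to 38.0% of the counts of the set in the other libraries and 50.7% in Sample E. Sample E also had 14 entries more than 1 log2 unit above the other libraries, of which miR-2411-3p, both entries of miR-2887 and the putative miRNA put-79 were more than 3 above. Such high entries were more frequent in Sample B, with 16 more than 1 above and 8 more than 3 above. In Sample F 2 entries were more than 3 below. The share of the 257 entries within 1 log2 unit was 87.5% in Sample E and between 91.1% and 96.1% in the other libraries.

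**Figure D4:**
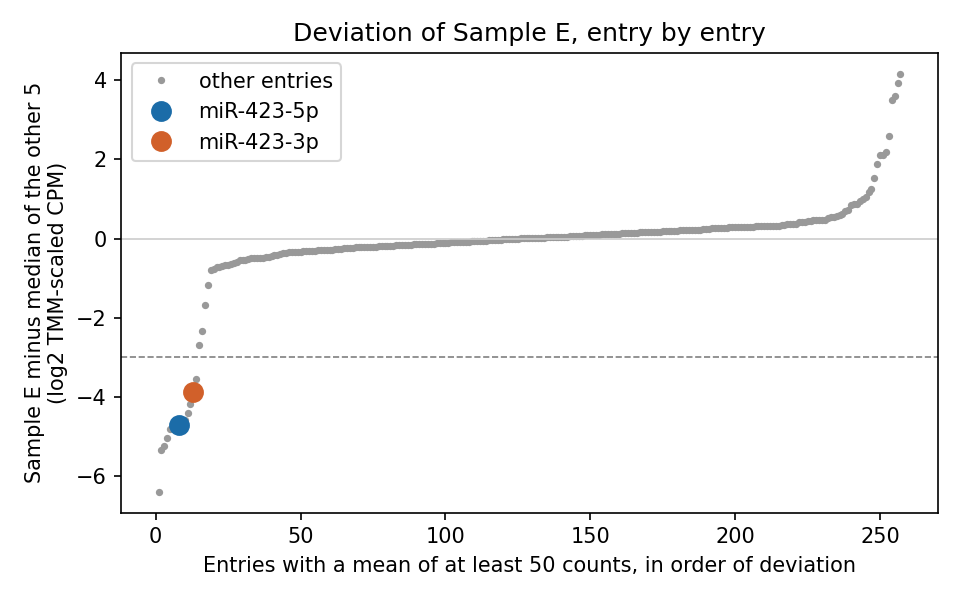
Deviation of Sample E from the median of the other 5 libraries, in log2 TMM-scaled CPM, for the 257 entries averaging 50 counts or more, in order of their deviation, with a dashed line at 3 log2 units below. The arms of miR-423, at -4.71 and -3.87, belong to the short lower tail of 14 entries, and most entries lie near 0.

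Among the hairpins with both arms well measured, miR-423 alone had both arms far below the other libraries in Sample E. Both arms averaged 50 counts or more for 14 hairpins with 1 entry per arm, and in 11 of them neither arm was more than 1 log2 unit below the other libraries. Of the miRNAs more than 3 log2 units lower in Sample E, only miR-423 and miR-151 were among these 14 hairpins. For the rest of them a joint drop of both arms could not be examined, and miR-423 had been chosen with both arms low. miR-151, a miRNA of an intron of the focal adhesion kinase gene, was low in its 3p arm (327 counts in Sample E, median of the others 12200, deviation -4.72), whereas its 5p arm had 286 counts against 539 (deviation -0.76). The arm ratio of miR-151 in Sample E was therefore farther from the other libraries than that of miR-423. For miR-1434 the 3p arm deviated by -2.34, with 9 counts in Sample E against 71, and the 5p arm by 0.72. miR-2411, one of the entries that set Samples B and E apart, deviated upwards, by 1.05 in the 5p arm and 3.50 in the 3p arm. In the remaining 10 hairpins the arms deviated by between -0.79 and 0.32. These are single values of 1 library, for which no test is possible.

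**Figure D5:**
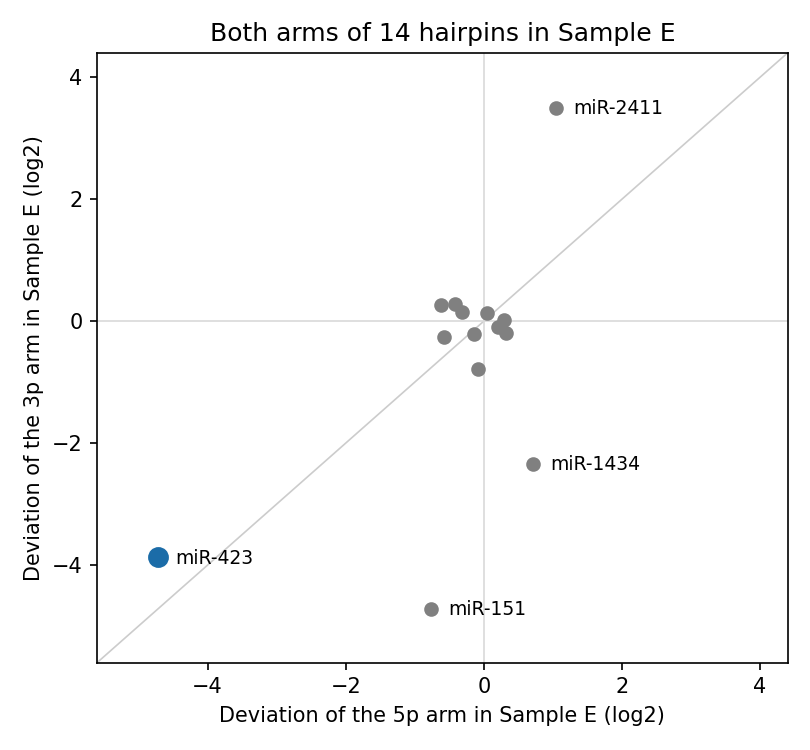
Deviation of Sample E from the median of the other 5 libraries, in log2 TMM-scaled CPM, for the 5p arm (horizontal axis) and the 3p arm (vertical axis) of 14 hairpins, with a line where both are equal. miR-423 lies at -4.71 and -3.87, miR-151 at -0.76 and -4.72, and most hairpins lie near the origin.

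The counts of the arms were near balance in a minority of the 14 hairpins, and miR-423 was not alone in this. These hairpins are the part of 74 with 1 entry per arm in which both arms averaged 50 counts or more. The ratios are those of reads after adapter ligation and PCR, and the ratio of the arms in the cells was not measured. Of the 14 hairpins, 5 had mean counts of the arms within 2-fold of each other, of which miR-423 had the highest counts. In miR-21 the 5p arm outnumbered the 3p arm by a median of 7613-fold, and in miR-22, whose 3p arm prevails, the median ratio was 0.00961. The spread of the arm ratio of miR-423 lay in the lower part of the range of the other hairpins. Its SD over 6 libraries was 0.41 on the log2 scale, place 5 of 14 from the lowest, against a median of 0.59 and a range of 0.21 to 1.73 over the other 13. Without Sample E the SD was 0.31, against a median of 0.46. Each of the other 13 hairpins had an arm with a lower mean count than both arms of miR-423, so counting error adds more to their spread. The part of counting error in this order was not tested. miR-423 shared with miR-30b and miR-2411 that its lowest 5p to 3p ratios were those of Samples B and E.

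Apart from Sample E, both arms varied less than the median entry. Over the other 5 libraries the SD of log2 TMM-scaled levels was 0.26 for miR-423-5p and 0.14 for miR-423-3p, where the median of the 257 entries was 0.33. Most of these entries had lower counts than either arm, and counting error adds more to their SD, a part that was not separated. In order from the lowest SD, the 3p arm was at place 14 and the 5p arm at place 79. This order of the arms depends on the scaling, since with library totals alone the SD was 0.25 for the 3p arm and 0.26 for the 5p arm, at places 60 and 62, against a median of 0.35. With Sample E included the SDs after TMM scaling were 1.89 for the 5p arm and 1.58 for the 3p arm, places 13 and 20 from the highest. The arms did not follow each other closely across the 5 libraries. In TMM-scaled CPM miR-423-5p was highest in Sample A and lowest in Samples B and D, which were nearly equal (3001 and 3005 CPM). miR-423-3p was highest in Sample B and lowest in Sample D. In CPM of the library totals the highest samples were the same, and both arms were lowest in Sample D (2798 CPM for the 5p arm and 2240 CPM for the 3p arm).

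The miRNAs with the most similar profiles changed when Sample E was left out. Likeness was measured as the root mean square difference of log2 levels after centring each entry on its mean, over the other 256 entries averaging 50 counts or more. Over 6 libraries the nearest to miR-423-5p were miR-29a, a repressor of collagen genes (0.18), miR-151-3p (0.19), both entries of miR-218, a miRNA of the SLIT genes (0.23 and 0.24), and miR-660 (0.25), where the median of all entries was 1.76. For miR-423-3p they were miR-2284x (0.24), both entries of miR-218 (0.27 and 0.36), miR-1842 (0.27) and miR-660 (0.36), where the median was 1.49. All of these belong to the 14 entries that were low in Sample E. That was largely fixed in advance, because miR-423 was chosen for its drop there and a drop of this size dominates the difference over 6 libraries. The medians of 1.76 and 1.49 are likewise set by this drop. The 3p arm came eighth for the 5p arm, and the 5p arm sixth for the 3p arm, at a difference of 0.37.

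Over the 5 libraries without Sample E, the nearest to miR-423-5p were miR-2408 (0.07), miR-99a-5p (0.08), miR-100 (0.11), miR-92b (0.11) and miR-2483-5p (0.12), where the median of all entries was 0.37. miR-99a-5p and miR-100 belong to the same seed family. The nearest to miR-423-3p were miR-362-5p (0.08), miR-191 (0.10), miR-31 (0.11), miR-7859 (0.11) and miR-30d (0.12), where the median was 0.32. None of these 10 was low in Sample E, where they deviated by between -0.46 and 0.42. The other arm of miR-423 came at place 72 for the 5p arm and at place 89 for the 3p arm, at a difference of 0.28. These distances rest on 5 or 6 points each and are a description.

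miR-191, a common reference miRNA that was also a reference in the qRT-PCR of the study, gave a scale for both arms that does not depend on library totals. Its counts ran from 11406 to 28970 and were 14000 in Sample E. The ratio of miR-423-5p to miR-191 was 1.23, 0.766 and 1.04 in Samples A, B and C and 0.967, 0.0380 and 1.29 in Samples D, E and F. For miR-423-3p the ratio was 0.6997, 0.778, 0.742, 0.774, 0.0466 and 0.861 from Sample A to Sample F. In 5 libraries miR-423-5p was thus counted about as often as miR-191 and miR-423-3p somewhat less often. Both arms were counted far less often than miR-191 in Sample E.

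Other miRNAs of the kind often used as references stayed near the other libraries in Sample E. The list held let-7a-5p, let-7i, miR-16a, miR-16b, miR-25, miR-26a, miR-93, miR-103, miR-191, miR-425-5p and miR-484, with 15 entries for 11 miRNAs. Their deviations in Sample E ran from -0.45 for miR-25 to 0.32 for an entry of miR-26a. Over the other 5 libraries their SD of log2 levels was 0.15 to 0.51, with a median of 0.32. All 15 entries had a larger SD there than miR-423-3p, and 10 had a larger SD than miR-423-5p. With library totals alone 12 of the 15 entries had a larger SD than either arm. Without Sample E, 7 of the 15 entries had point estimates above 0 and 8 below 0. Those above 0 were entries of miR-16a, miR-16b, miR-25, miR-93, miR-103 and miR-425-5p. Those below 0 were entries of let-7a-5p, let-7i, miR-26a, miR-191 and miR-484. The median log2 fold change was -0.23, against -0.01 over all entries tested. This median counts the repeated entries of let-7a-5p, miR-26a and miR-103 separately, so no shift of the 11 miRNAs can be read from it. In edgeR 0 of the 15 entries passed an adjusted p of 0.05, where 0% of all entries did.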

How the data were processed

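Small RNA of 6 pooled cumulus samples was sequenced on an Illumina NextSeq instrument after adapter ligation, PCR and selection of fragments of miRNA size. miRNAs were identified by miRBase. Not given in the sources used here are the aligner, the counter and the genome build. The deposited counts are whole numbers, which the authors did not normalize. They also deposited log2 values of 50 miRNAs, which for both arms equal log2 CPM of the library total. The deposited comparison of the groups (fold changes, p-values and FDR values) was not used. Column names gave the letter and the group of each library, and no letter was tied to a single sample label.

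The main test was the quasi-likelihood test of edgeR 4.0.16 in R 4.3.3, after filterByExpr and TMM scaling, with p-values adjusted over all entries (Benjamini-Hochberg, threshold 0.05). DESeq2 1.42.0 was the other tool, and levels, ratios and plots were made with Python 3.11.15 (pandas 2.3.3, numpy 2.4.6, scipy 1.17.1, matplotlib 3.10.9). SE was computed as |log2 fold change| over the root of the F statistic. Log2 levels used a prior count of 2. The test was tried on simulated data first. Alternatives were DESeq2, other scalings, no filter, leaving out libraries and, chosen after seeing the data, differences of mean log2 levels and the spread of both arms with library totals alone.

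The members, the lists and the rule for named miRNAs (the arms, reference miRNAs, the 5 nearest profiles, neighbours in abundance, entries low in Sample E and hairpins with both arms measured) were chosen with earlier results of these data known.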

Additional observations from a re-analysis of the deposited data

How the results depend on the processing

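Of 115 alternative values, 106 kept the direction and the side of the threshold or moved by less than the spread between samples. For group differences with all libraries that spread includes Sample E, so the count says little about them. Leaving out Sample E moved the log2 fold change of miR-423-5p from -0.66 to -0.093 and the arm ratio difference from -0.22 to 0.025. Both moves were within that spread and are among the 106. With upper-quartile factors the deviation in Sample E was -3.98 for miR-423-5p and -3.21 for miR-423-3p, and these factors moved the median log2 fold change of all entries from -0.02 to 0.32 with all libraries. Without Sample E they turned the log2 fold change of miR-423-5p to 0.014, and it ran from -0.35 to 0.087 with a further library left out, above 0 without Sample A (0.021) or Sample D (0.087), each with an adjusted p of at least 0.830. The arm ratio difference without Sample E ran from -0.20 to 0.22 with a further library left out, below 0 without Sample B (-0.20) or Sample F (-0.11), with an exact p of at least 0.667. The causes were not tested. The number of entries called without Sample E was 4 with DESeq2 and 8 without a filter. With all libraries the log2 fold change ran from -1.26 to -0.093 for miR-423-5p and from -1.11 to -0.12 for miR-423-3p with a library left out, nearest to 0 without Sample E in both arms. No paired analysis was made, because the sources used here describe no pairing of not-cleaved with blastocyst pools. Where a left-out library leaves a group with 1 sample, that sample is assumed to vary like the others. Depth does not limit the levels of both arms, which had at least 532 counts in every library, but 3 pools against 2 limit what the group comparison can show.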

Other observations

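Both arms of miR-423 are among the 50 miRNAs whose log2 values were deposited for the heat map. For miR-423-5p the deposited log2 CPM is 7.23 in Sample E, where the other libraries hold 11.45 to 12.15. For miR-423-3p it is 7.52, where the others hold 11.13 to 11.82. By coefficient of variation of CPM over 6 libraries, among the 284 entries above 10 counts in all libraries, miR-423-5p was at place 26 from the highest (50.1%) and miR-423-3p at place 30 (49.3%). Over the 5 libraries without Sample E the coefficients were 17.3% and 18.9%, and the arms were at places 222 and 211 of the same 284 entries. Most of these entries had lower counts than the arms, and counting error adds more to their coefficients.

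In order of mean CPM over the 5 libraries without Sample E, miR-423-5p stood at place 30 of the table, between miR-25, a member of the miR-106b cluster (3752 ± 616 CPM, SD, n = 5), and miR-191 (3548 ± 681 CPM). miR-423-5p itself was at 3688 ± 637 CPM. miR-423-3p stood at place 35 (2727 ± 514 CPM), between miR-27b (2941 ± 303 CPM) and miR-186 (2664 ± 674 CPM). The levels of these neighbours overlap with those of the arms.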
